A study of Mus musculus with 12 samples.

Results

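Integrin subunits and laminin chains, the receptors and the basement membrane proteins through which cells hold on to their matrix, were measured in mouse mammary tumours treated with MBQ-167, paclitaxel or both. The members were taken by symbol: protein-coding genes named Itga or Itgb followed by a number or 1 letter, or Lama, Lamb or Lamc followed by a number. This gave 36 genes, 25 integrin subunits and 11 laminin chains, of the 46078 genes in the count table. The integrins were divided into 8 leukocyte subunits (Itgal, Itgam, Itgax, Itgad, Itgae, Itga4, Itgb2, Itgb7), 6 epithelial subunits (Itga2, Itga3, Itga6, Itgb4, Itgb6, Itgb8) and 11 others that are widely expressed, mesenchymal or vascular (Itga1, Itga5, Itga7, Itga8, Itga9, Itga10, Itga11, Itgav, Itgb1, Itgb3, Itgb5). The platelet subunit Itga2b and the relatives Itgb2l and Itgbl1 lie outside the rule and were left out.

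The tumours were grown in BALB/c mice from 300000 cells of 4T1, a mouse mammary carcinoma line that carried firefly luciferase, placed in mammary fat pad number 4. Treatment started on day 14, ran for 2 weeks and ended with collection of the tumours on day 28. The labels give the genotype as WT and 4 groups of 3 libraries each: vehicle, MBQ-167 at 100 mg/kg 5 times a week, paclitaxel at 5 mg/kg 1 time a week, and both drugs together. MBQ-167 inhibits Rac and Cdc42, small GTPases that drive actin remodelling, and paclitaxel stabilises microtubules. Cells were injected on 2 occasions that the labels do not assign to libraries, and an effect of the occasion cannot be told apart from one of the group. The libraries are labelled as biological replicates without a statement that each is a separate mouse, and p-values therefore measure the spread between these libraries. All 4 groups come from 1 transplanted line in 1 mouse strain, and the RNA is from whole tumours, which hold host cells as well as carcinoma cells.

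An integrin is a pair of 1 alpha and 1 beta subunit that spans the membrane, binds matrix or another cell outside and links to actin or to keratin filaments inside. Itgb1 pairs with many alpha subunits, Itga6 with Itgb4 forms the receptor of hemidesmosomes in epithelia, and Itgb2 is the shared beta subunit of the leukocyte integrins built with Itgal, Itgam, Itgax or Itgad. Laminins are trimers of 1 alpha, 1 beta and 1 gamma chain that form the sheet of the basement membrane. Lama3 and Lamb3 are the alpha and beta chain of an epithelial laminin bound by the Itga6 and Itgb4 pair, while Lama5 or Lama4 with Lamb1 and Lamc1 make the laminins of epithelial and vascular basement membranes. Rac and Cdc42 act downstream of integrins in spreading and migrating cells.

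Library totals ran from 11540557 to 17001562 counts, and protein-coding genes took 52.7% to 71.5% of them. Another 3 features at a ribosomal RNA locus took 31.6% to 37.5% of counts in vehicle, 30.1% to 36.8% with MBQ-167, 17.1% to 32.1% with paclitaxel and 19.9% to 37.4% with the combination. The TMM factors that scale the libraries were 0.826 to 0.904 in vehicle and 0.933 to 1.22 in the drug groups, without overlap. The markers of epithelium (6 of 6 detected in every library), fibroblasts and macrophages were present, and the 3 lung epithelial markers summed to at most 0.553 CPM (counts scaled to the TMM-corrected library size) in any library. Vehicle library 3 stood apart: its summed epithelial markers were the highest at 2759 CPM and its summed neutrophil markers were the highest at 1605 CPM, while its macrophage markers were the lowest at 547 CPM. Vehicle library 2 had the highest macrophage sum at 1821 CPM, and its epithelial sum was 952 CPM against 1891 CPM in vehicle library 1 and 919 to 1493 CPM in the 9 drug libraries. In RNA of a whole tumour, fewer cells of a type and less RNA per cell cannot be told apart.

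In vehicle tumours the most abundant members per length were Itgb1, the epithelial subunit Itga3 and laminin chains, with the leukocyte subunits below them. On the scale of CPM per kilobase of exon, Itgb1, the common beta subunit, was the highest at 249.96 ± 15.7 (SD, n = 3), followed by Itga3, an epithelial laminin receptor subunit, at 165 ± 48.8. The laminin chains Lama5, Lamc1 and Lamb1 followed at 83.8 ± 4.09, 68.9 ± 0.508 and 66.7 ± 2.36, and of these Lama5 lay beyond the spread of Lamc1 and Lamb1, which did not differ beyond theirs. Itgb4 stood at 56.5 ± 12.3, Itgb5 at 49.4 ± 8.63 and Itga6 at 29.4 ± 5.75. Of the leukocyte subunits Itgb2 was the highest at 40.2 ± 14.5, then Itgam at 26.7 ± 5.90, Itgal at 7.10 ± 2.08 and Itgax at 5.58 ± 1.78. The fibronectin receptor subunit Itga5 stood at 26.4 ± 11.7 and Itgav, which binds RGD-containing ligands, at 25.0 ± 1.99, so that Itga6, Itgam, Itga5 and Itgav did not differ beyond their spread. The lowest chain that was tested was Lamc3 at 0.192 ± 0.04997, and Itgad had 0 to 8 counts in a library, 41 in all, and did not pass the filter on low counts. The other 35 members passed it.

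Promoter sequence from the RefSeq table for GRCm38.p6 was used for 22 of the 36 members, with 25 start sites. The 250 bases before the start are shown for 3 members that differ in how they behaved. These are Lama5, a laminin chain that was steady between vehicle tumours, and Itgam, a leukocyte subunit. The other is Lamb3, which varied most widely among the members whose promoters were used. Letters in capitals mark matches, on either strand, to the GC box bound by Sp1 (GGGCGG, or CCGCCC on the other strand) and to the core of the PU.1 motif (GAGGAA, or TTCCTC on the other strand).
Lama5, chr2:180225860-180226109, minus strand: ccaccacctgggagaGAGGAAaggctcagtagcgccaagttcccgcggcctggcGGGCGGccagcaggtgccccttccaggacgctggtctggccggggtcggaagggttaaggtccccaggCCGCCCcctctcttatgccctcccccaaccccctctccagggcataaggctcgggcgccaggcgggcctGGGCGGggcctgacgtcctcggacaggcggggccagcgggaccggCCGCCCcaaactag
Lamb3, chr1:193301744-193301993, plus strand: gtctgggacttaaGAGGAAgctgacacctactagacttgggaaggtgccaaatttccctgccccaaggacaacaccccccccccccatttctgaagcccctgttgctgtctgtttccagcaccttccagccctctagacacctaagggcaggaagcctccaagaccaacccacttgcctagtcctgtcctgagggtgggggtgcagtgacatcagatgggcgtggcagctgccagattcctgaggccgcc
Itgam, chr7:128062390-128062639, plus strand: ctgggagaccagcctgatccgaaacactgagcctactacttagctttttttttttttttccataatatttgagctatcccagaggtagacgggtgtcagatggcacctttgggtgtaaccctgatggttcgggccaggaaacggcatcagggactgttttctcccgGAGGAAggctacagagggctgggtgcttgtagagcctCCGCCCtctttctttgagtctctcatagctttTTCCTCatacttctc
The Lama5 window held 4 GC boxes and 1 PU.1 core at 72.4% G and C, the Lamb3 window shown 1 PU.1 core and no GC box at 58.8%, and the Itgam window 2 PU.1 cores and 1 GC box at 49.6%. In the 32851 promoters of the same length, 32.7% held the GC box and 23.3% the PU.1 core at least 1 time, so holding either is not rare. How many promoters held 4 GC boxes or 2 PU.1 cores was not counted. The AP-1 motif (TGANTCA) and the TATA box (TATAAA), held by 6.75% and 12.4% of promoters, were not in these 3 windows. Lamb3 has another listed start, whose window (chromosome 1, 193301993 to 193302242, 61.2% G and C) held none of the 4 motifs. A match describes letters and not a bound site.

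**Figure D1:**
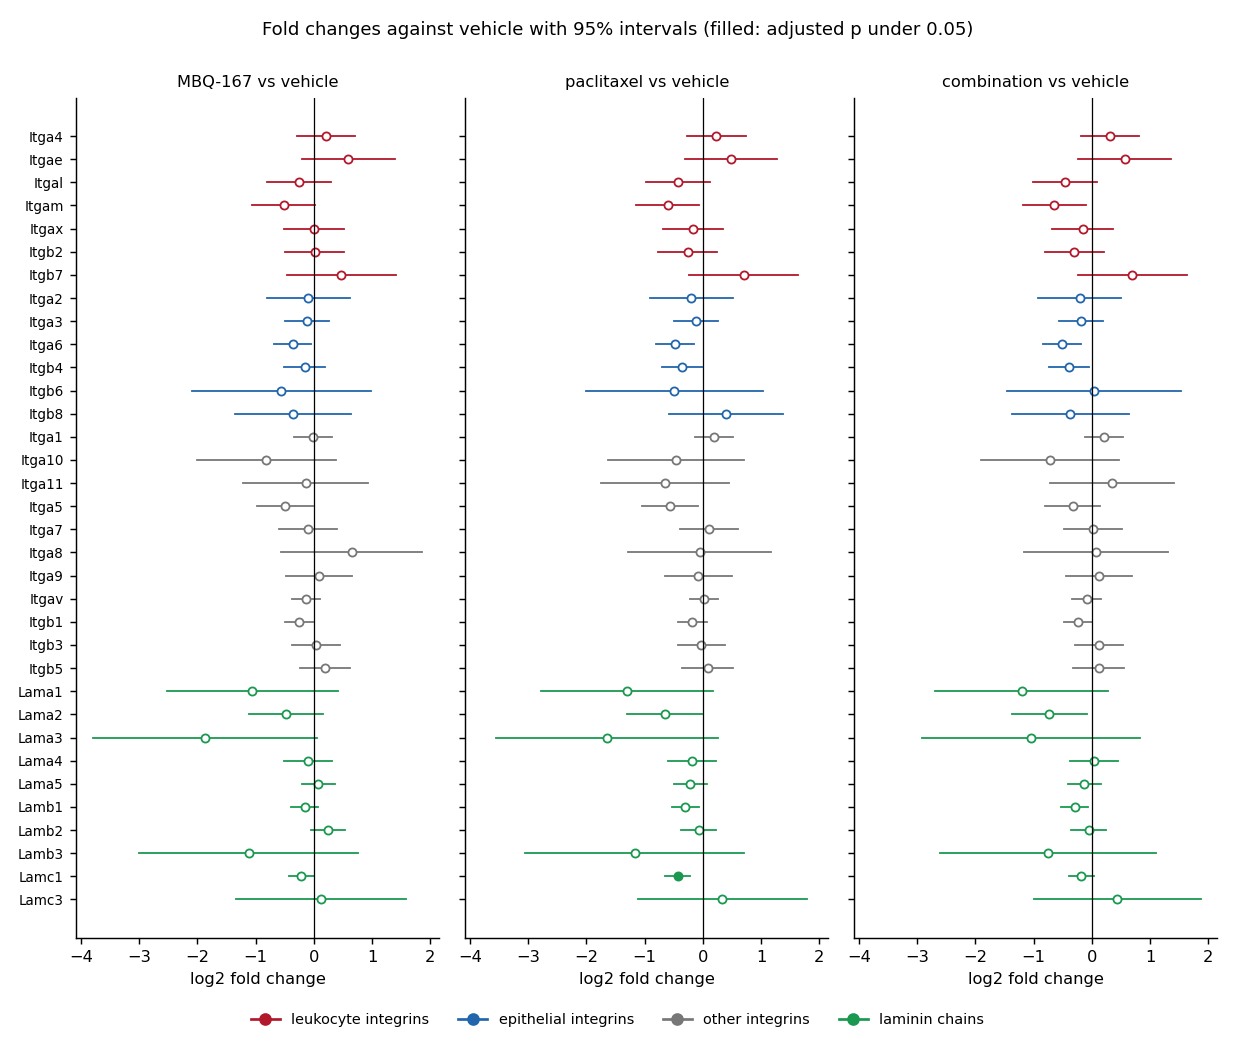
Log2 fold change of 34 tested members in each drug group against vehicle (x axis, log2 units; 3 panels, 1 per drug group), with members on the y axis grouped by class; points are estimates from the fit of all 12 libraries and bars are 95% intervals. Lamc1 in paclitaxel is the only point past an adjusted p of 0.05, and the bars are widest for the laminin chains Lama3 and Lamb3.

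Across the 6 comparisons of the design, 1 call was made among the 35 members tested at an adjusted p under 0.05 over all 18252 genes. With paclitaxel against vehicle 1 of 35 members passed, Lamc1, which was lower, where 5.66% of all genes passed and 2.49% passed as lower. With MBQ-167 against vehicle no member passed, with 0.0931% of all genes called, and with the combination against vehicle no member passed, with 1.84% of all genes called. Unadjusted p-values under 0.05 were found for 3 members with MBQ-167 (Itga6, Itga5, Itgb1), 7 with paclitaxel (Lamc1, Itga6, Lamb1, Itgb4, Lama2, Itgam, Itga5) and 5 with the combination (Itga6, Lamb1, Itgb4, Lama2, Itgam), all of them lower than in vehicle. Over all genes 12.9%, 22.6% and 18.4% had such a p in either direction, and 7.05%, 11.2% and 8.81% as lower. These 3 comparisons share the vehicle libraries. DESeq2 called 0 members with MBQ-167, 3 with paclitaxel (Lamc1, Itga6, Lamb1) and 1 with the combination (Itga6), where it called 2.56%, 10.2% and 5.57% of the genes it gave an adjusted p. The 95% interval excluded a 2-fold change in either direction for 21, 20 and 20 of the 35 members in the 3 comparisons. The median log2 change of the tested members was -0.14, -0.20 and -0.18, with 23, 26 and 22 of 35 below 0, where the median of all genes was 0.00 in each. In that order of drug groups, the medians by class were -0.21, -0.43 and -0.30 for the laminins and -0.26, -0.28 and -0.29 for the epithelial integrins. They were 0.01, -0.17 and -0.16 for the leukocyte integrins and -0.10, -0.05 and 0.07 for the others. Without vehicle library 3 they became 0.09, -0.16 and -0.01 for the laminins, 0.06, 0.14 and -0.09 for the epithelial integrins, and -0.21, -0.42 and -0.40 for the leukocyte integrins.

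The libraries of some members did not overlap with vehicle. With MBQ-167 these were Lamb2 above and Lamc1, Itgam and Itgb1 below, 1 and 3 of 35, where 8.54% and 8.79% of all genes did so. With paclitaxel 6 members lay below (Lamc1, Itga6, Lama5, Lamb1, Itgam, Itga5) and none above, where the shares of all genes were 12.1% and 13.2%. With the combination 4 lay below (Itga6, Lamb1, Lamc1, Itgb1) and 2 above (Itgae, Itga1), where the shares were 9.86% and 11%.

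Lamc1 was the member that passed the test with paclitaxel. Lamc1 (ENSMUSG00000026478, GRCm38 chromosome 1, 153218922 to 153332786, minus strand) encodes the gamma chain of most laminins. It stood at 567, 568 and 575 CPM in the vehicle tumours and at 436, 389 and 442 CPM in the paclitaxel tumours. It stood at 505, 467 and 503 CPM with MBQ-167 and at 485, 529 and 495 CPM with the combination. Every vehicle library lay above every drug library, and every combination library lay above every paclitaxel library. With paclitaxel Lamc1 fell by 25.9%, a log2 change of -0.43 ± 0.10 (SE, 95% interval -0.65 to -0.21, adjusted p = 0.0263 by edgeR's quasi-likelihood test). The change was -0.21 ± 0.10 with MBQ-167 (adjusted p = 0.399) and -0.18 ± 0.10 with the combination (adjusted p = 0.373). DESeq2 called it too, and the estimate stayed between -0.47 and -0.35 in 15 alternatives, but its adjusted p passed 0.05 in 7 of them. With protein-coding genes only, which leaves out the ribosomal RNA features and recomputes the scaling, Lamc1 was at -0.41 (adjusted p = 0.0213). The adjusted p was 0.0648 without vehicle library 1, 0.0667 without paclitaxel library 1, 0.112 without paclitaxel library 2 and 0.103 with a correction for GC content. Neutrophil markers were lower in the same comparison: 13 of 13 tested had estimates below 0 and 10 were called. Their summed level was 213 to 293 CPM with paclitaxel against 381 to 1605 CPM in vehicle. Erythroid markers had 5 of 5 below 0 and 2 called, with sums of 14.5 to 106 CPM against 256 to 265 CPM. With the neutrophil level as covariate Lamc1 was at -0.44 (adjusted p = 0.246), and the part of the erythroid markers in the result was not tested.

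The partners of Lamc1 described here had estimates below 0 with paclitaxel, without passing edgeR's quasi-likelihood test. The paclitaxel libraries of Lamb1 and Lama5 lay below vehicle, and those of Lama4 overlapped it. Lamb1, the beta chain (chromosome 12, 31265234 to 31329644, plus strand), stood at 636, 682 and 666 CPM in vehicle, 662, 579 and 541 CPM with MBQ-167, 567, 506 and 540 CPM with paclitaxel and 534, 562 and 520 CPM with the combination. The paclitaxel and combination libraries all lay below the vehicle libraries, and the MBQ-167 libraries overlapped them. Its log2 change was -0.30 ± 0.11 with paclitaxel (adjusted p = 0.122) and -0.30 ± 0.11 with the combination (adjusted p = 0.171), and DESeq2 called the first at 0.0383. Lama5, the alpha chain whose promoter is printed above, stood at 910.3, 1003 and 950.2 CPM in vehicle, 987, 1031 and 997 CPM with MBQ-167, 868, 689 and 908 CPM with paclitaxel and 896, 972 and 753 CPM with the combination. Paclitaxel library 2 was the lowest of all, and the paclitaxel libraries lay below the vehicle libraries by a narrow margin, the nearest pair being 907.9 and 910.3 CPM. Its log2 changes were 0.07, -0.22 and -0.13 in the 3 drug groups, in the same order (adjusted p = 0.865, 0.356 and 0.662). Lama4, the alpha chain of vascular laminin, stood at 49.4 to 74.4 CPM in vehicle and 48.4 to 78.6 CPM in the drug groups, which overlapped it throughout (log2 change -0.10, -0.19 and 0.03).

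**Figure D2:**
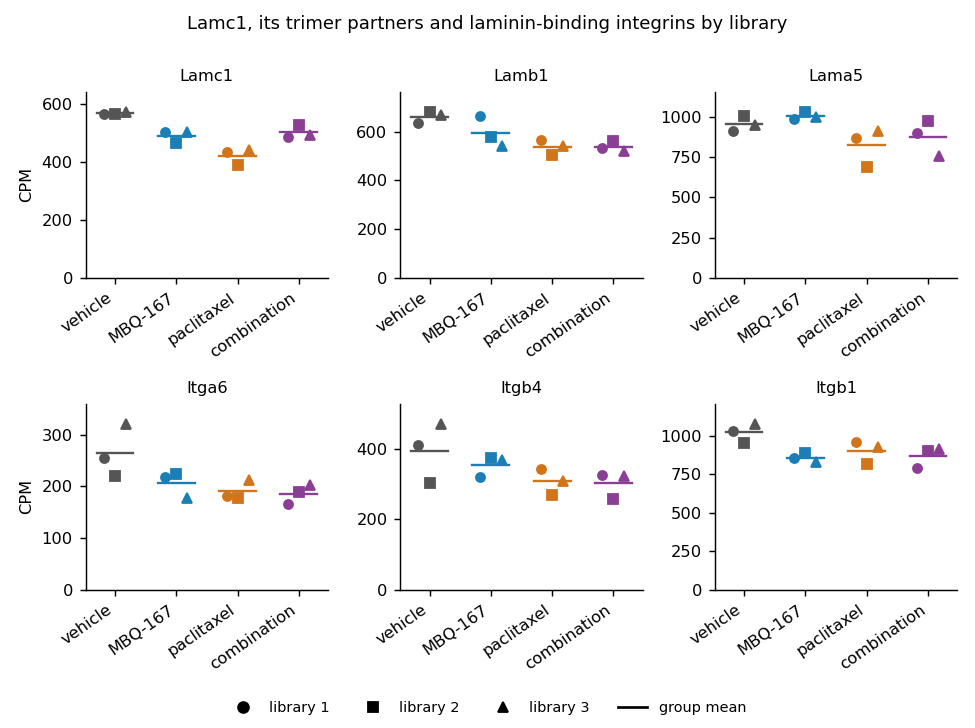
CPM on a linear y axis from 0 for Lamc1, its trimer partners Lamb1 and Lama5, and the laminin-binding integrins Itga6, Itgb4 and Itgb1, by group on the x axis; each point is 1 library, its shape gives the library number and the line is the group mean. The 3 vehicle libraries of Lamc1 sit together at 567 to 575 CPM above all 9 drug libraries, whereas those of Itga6 and Itgb4 spread over 219 to 321 and 303 to 473 CPM.

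Lamb2, the beta chain of synaptic, muscle and kidney laminins, was the laminin chain with the smallest unadjusted p among members that were higher with MBQ-167. It stood at 62.3, 68.2 and 57.5 CPM in vehicle, 69.9, 78.5 and 75.0 CPM with MBQ-167, 62.3, 52.1 and 64.1 CPM with paclitaxel and 72.1, 49.7 and 59.2 CPM with the combination. The MBQ-167 libraries lay above vehicle, with a log2 change of 0.25 ± 0.14 (adjusted p = 0.471). Lama2, the alpha chain of muscle and mesenchyme, stood at 13.5, 12.7 and 25.3 CPM in vehicle and 6.51 to 15.0 CPM in the drug groups. Its log2 changes were -0.48, -0.66 and -0.73 (adjusted p = 0.534, 0.212 and 0.214 by edgeR's quasi-likelihood test). Vehicle library 3 was the highest of all libraries for Lama2. It was also the highest for the summed skeletal muscle markers (29.4 CPM) and fibroblast markers (9794 CPM), and the part of these cells was not tested. Lama1, the embryonic alpha chain, reached 11.1 CPM in vehicle library 3 and 0.870 to 3.23 CPM elsewhere. Its log2 changes of -1.06, -1.30 and -1.21 rested on that library and were 0.42, 0.17 and 0.27 without it. Lamc3 stood at 0.530 to 3.40 CPM over all libraries.

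The epithelial laminin chains Lama3 and Lamb3 had the widest spread between vehicle libraries of the 26 members that averaged 10 CPM or more. They were high and low in the same tumours, and the 4 groups overlapped. Lama3 stood at 42.9, 9.17 and 269 CPM in vehicle, 22.8, 22.2 and 42.8 CPM with MBQ-167, 21.7, 59.5 and 22.1 CPM with paclitaxel and 23.6, 20.4 and 111 CPM with the combination. Lamb3 stood at 53.0, 10.7 and 215 CPM in vehicle, 20.9, 22.5 and 84.6 CPM with MBQ-167, 31.6, 65.7 and 27.5 CPM with paclitaxel and 22.3, 20.9 and 121 CPM with the combination. Vehicle library 3 was the highest and vehicle library 2 the lowest of all 12 for both chains, so that every drug library lay inside the range of the vehicle libraries. The highest vehicle library exceeded the lowest by 29.4-fold for Lama3 and 20.2-fold for Lamb3. Over the 9366 genes that averaged 10 CPM or more this ratio had a median of 1.29 and a 95th percentile of 2.24, and it was 1.01 for Lamc1, the narrowest of those 26 members. The same 5 libraries held the 5 highest values of both chains: vehicle 1 and 3, MBQ-167 library 3, paclitaxel library 2 and combination library 3.

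Neither Lama3 nor Lamb3 passed the test in any comparison by edgeR's quasi-likelihood test or by DESeq2, and neither had an unadjusted p under 0.05 in the former. Lama3 differed from vehicle by -1.87 ± 0.90 with MBQ-167, -1.65 ± 0.89 with paclitaxel and -1.05 ± 0.87 with the combination on the log2 scale (adjusted p = 0.402, 0.293 and 0.573). Without vehicle library 3 these values were 0.17, 0.39 and 0.99. Lamb3 went from -1.12, -1.17 and -0.75 to 0.42, 0.37 and 0.79. The direction of these chains therefore turned without 1 vehicle library in 6 of 6 values. The summed epithelial markers were also highest in vehicle 3, then vehicle 1, combination 3, MBQ-167 library 3 and paclitaxel library 3. Their lowest library was combination library 2 at 919 CPM, not vehicle library 2. With the level of these markers as covariate, an alternative chosen after seeing the data, all 6 values lay between 0.35 and 0.79. Over 15 alternatives Lama3 ran from -2.41 to 0.75 with MBQ-167 and from -2.29 to 2.54 with paclitaxel. Of the 6 epithelial markers, 1 was called lower with paclitaxel and 0 with MBQ-167 or the combination. All 6 had estimates below 0 in each drug group. Their median log2 changes were -0.88 with MBQ-167, -0.78 with paclitaxel and -0.68 with the combination. The basal markers Krt5, Krt14, Krt17 and Trp63 summed to 9.57 to 70.2 CPM in vehicle and 10.6 to 95.5 CPM in the drug groups.

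**Figure D3:**
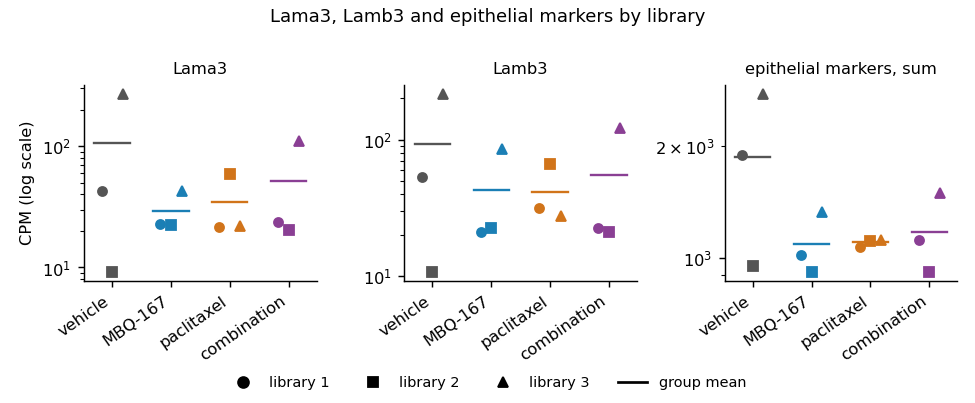
CPM of the laminin chains Lama3 and Lamb3 and of the summed epithelial markers on log y axes, by group on the x axis; each point is 1 library, its shape gives the library number and the line is the group mean. Vehicle library 3 is the highest point and vehicle library 2 the lowest for both chains, 269 and 9.17 CPM for Lama3.

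None of the 6 epithelial integrins passed edgeR's quasi-likelihood test against vehicle. Itga2, Itga3, Itga6 and Itgb4 had estimates below 0 in the 3 drug groups. Itgb8 was at 0.40 with paclitaxel and Itgb6 at 0.04 with the combination on the log2 scale. The 6 epithelial markers lay below 0 in each drug group too. Itga6, the laminin-binding alpha subunit (ENSMUSG00000027111, chromosome 2, 71745616 to 71858416, plus strand), stood at 254, 219 and 321 CPM in vehicle and 217, 223 and 178 CPM with MBQ-167. It stood at 181, 177 and 213 CPM with paclitaxel and 166, 189 and 202 CPM with the combination. The paclitaxel and combination libraries all lay below vehicle, while 1 MBQ-167 library, at 223 CPM, lay above vehicle library 2. Its log2 change was -0.36 ± 0.15 with MBQ-167 (adjusted p = 0.324), -0.48 ± 0.15 with paclitaxel (adjusted p = 0.0746) and -0.51 ± 0.15 with the combination (adjusted p = 0.0919). DESeq2 gave adjusted p-values of 0.0313 and 0.0287 for the last pair. Without vehicle library 3, the highest library, the changes were -0.20, -0.32 and -0.35.

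Itgb4, the beta subunit of hemidesmosomes (chromosome 11, 115974709 to 116008412, plus strand), stood at 412, 303 and 473 CPM in vehicle and 320, 374 and 370 CPM with MBQ-167. It stood at 344, 270 and 310 CPM with paclitaxel and 327, 257 and 324 CPM with the combination. All drug groups overlapped vehicle, where library 2 was low. Its log2 change was -0.16 ± 0.16, -0.36 ± 0.16 and -0.39 ± 0.16 in the same order (adjusted p = 0.733, 0.2 and 0.217). Itga3, the alpha subunit that pairs with Itgb1 to bind laminin, stood at 917, 678 and 1234 CPM in vehicle and 846, 885 and 886 CPM with MBQ-167. It stood at 826, 934 and 840 CPM with paclitaxel and 849, 704 and 931 CPM with the combination, and its log2 changes of -0.11 ± 0.18, -0.12 ± 0.18 and -0.19 ± 0.18 (adjusted p = 0.846, 0.737 and 0.631) were under the vehicle spread.

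Of the remaining epithelial subunits, Itga2, a collagen receptor subunit, stood at 22.1 to 65.2 CPM in vehicle and 29.1 to 57.3 CPM in the drug groups. Itgb6, which pairs with Itgav and is restricted to epithelia, stood at 2.65, 0.395 and 7.36 CPM in vehicle and 1.22 to 6.59 CPM elsewhere, and like Lama3 and Lamb3 it was highest in vehicle library 3 and lowest in vehicle library 2. Itgb8, another partner of Itgav, stood at 5.59, 10.5 and 6.89 CPM in vehicle, 16.6, 3.40 and 10.1 CPM with paclitaxel and 7.25, 7.12 and 3.53 CPM with the combination. Its difference between combination and paclitaxel was -0.78 ± 0.46 on the log2 scale (adjusted p = 1).

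Itgb1, the common beta subunit (ENSMUSG00000025809, chromosome 8, 128685654 to 128733200, plus strand), stood at 1031, 951 and 1078 CPM in vehicle and 853, 888 and 828 CPM with MBQ-167. It stood at 960.1, 815 and 924 CPM with paclitaxel and 787, 897 and 914 CPM with the combination. The MBQ-167 and combination libraries lay below vehicle and 1 paclitaxel library did not. The log2 change was -0.25 ± 0.11 (adjusted p = 0.37), -0.18 ± 0.11 (adjusted p = 0.374) and -0.24 ± 0.11 (adjusted p = 0.29), and all 3 intervals excluded a 2-fold change.

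Itga5, the alpha subunit of the fibronectin receptor, stood at 99.3, 94.6 and 197 CPM in vehicle and 88.4, 91.5 and 96.9 CPM with MBQ-167. It stood at 89.4, 92.1 and 83.4 CPM with paclitaxel and 85.5, 101 and 123 CPM with the combination. Vehicle library 3 was set apart from all 11 others, which lay between 83.4 and 123 CPM. The log2 changes were -0.50 ± 0.22, -0.56 ± 0.22 and -0.33 ± 0.22 (adjusted p = 0.37, 0.154 and 0.464), and -0.07, -0.14 and 0.09 without that library. Itgav, the RGD receptor alpha subunit, was among the steadiest members, at 246, 272 and 288 CPM in vehicle, 236, 262 and 235 CPM with MBQ-167, 281, 250.05 and 290.0 CPM with paclitaxel and 229, 273 and 255 CPM with the combination. Its log2 changes were -0.14 ± 0.11, 0.03 ± 0.11 and -0.09 ± 0.11 (adjusted p = 0.654, 0.916 and 0.722). Itgb3, its partner on platelets, osteoclasts and endothelium, stood at 45.0, 49.4 and 61.9 CPM in vehicle, 55.3, 47.9 and 57.5 CPM with MBQ-167, 69.9, 43.1 and 40.2 CPM with paclitaxel and 54.5, 51.7 and 63.5 CPM with the combination. Its log2 changes of 0.04, -0.03 and 0.12, each ± 0.19, were within the spread (adjusted p = 0.954, 0.954 and 0.794).

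Itga1, a collagen receptor subunit of mesenchyme and endothelium, stood at 39.7, 38.7 and 41.5 CPM in vehicle and 53.7, 43.2 and 42.4 CPM with the combination, which lay above it. The log2 change was 0.21 ± 0.15 (adjusted p = 0.492), and the other drug groups, at 30.8 to 48.7 CPM, overlapped vehicle. Itgb5, Itga7 and Itga9 ranged over 141 to 244, 9.18 to 17.8 and 18.3 to 48.2 CPM, and their log2 changes against vehicle lay between -0.10 and 0.19. Itga8, Itga10 and Itga11 were low, at 0.632 to 8.04, 0.983 to 6.01 and 0.716 to 3.37 CPM. Itga8, a subunit of smooth muscle and mesenchyme, stood at 2.72, 0.632 and 7.16 CPM in vehicle and 3.65, 4.91 and 8.04 CPM with MBQ-167, with overlap and a log2 change of 0.65 ± 0.57 (adjusted p = 0.679). Itga11, a fibroblast collagen receptor subunit, stood at 0.819, 1.42 and 0.859 CPM with paclitaxel and 1.49, 1.18 and 3.37 CPM with the combination, with overlap and a difference of 0.99 ± 0.51 (adjusted p = 1). For Itga10, 33.5% of the exon bases are shared with Gm42957 on the same strand, so counts of the pair are uncertain.

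The leukocyte integrins overlapped between groups in most cases, and none passed the test. Itgb2, Itgam and Itgal were highest in the same tumour, vehicle library 2. Itgb2, the shared beta subunit (chromosome 10, 77530252 to 77565708, plus strand), stood at 115, 170.3 and 82.8 CPM in vehicle and 134, 116 and 122 CPM with MBQ-167. It stood at 104, 86.5 and 117 CPM with paclitaxel and 104, 125 and 70.2 CPM with the combination. Vehicle library 2, which had the highest macrophage and pan-leukocyte sums, was the highest and combination library 3 the lowest, and all groups overlapped. The log2 changes were 0.01 ± 0.23, -0.26 ± 0.23 and -0.30 ± 0.23 (adjusted p = 0.987, 0.551 and 0.539).

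Itgam, the alpha subunit CD11b of myeloid cells whose promoter is printed above (ENSMUSG00000030786, chromosome 7, 128062640 to 128118491, plus strand), was the leukocyte integrin with the smallest p in all 3 comparisons with vehicle. It stood at 129.7, 166 and 107 CPM in vehicle and 99.6, 106 and 76.5 CPM with MBQ-167. It stood at 106, 54.8 and 103 CPM with paclitaxel and 70.7, 116 and 71.5 CPM with the combination. The MBQ-167 and paclitaxel libraries lay below vehicle, while combination library 2 lay above vehicle library 3. The log2 changes were -0.52 ± 0.25, -0.61 ± 0.25 and -0.64 ± 0.25 (adjusted p = 0.413, 0.171 and 0.195), and -0.66, -0.75 and -0.78 without vehicle library 3. Neutrophil markers were lower in the same comparisons, with 0, 10 and 9 of 13 tested called in the same order, and summed levels of 224 to 348, 213 to 293 and 217 to 326 CPM against 381 to 1605 CPM in vehicle. Vehicle library 3, with the highest neutrophil sum, had the lowest Itgam of the vehicle libraries. With the neutrophil level as covariate the Itgam values were -0.76, -1.03 and -1.04 (adjusted p = 0.345, 0.23 and 0.244). The 8 macrophage and monocyte markers lay below 0 in 8, 8 and 7 cases, with 0, 1 and 0 called lower, and their sum was highest in vehicle library 2, as Itgam was. The summed level was 547 to 1821 CPM in vehicle, 781 to 1345 CPM with MBQ-167, 668 to 1151 CPM with paclitaxel and 712 to 1347 CPM with the combination, and the part of these cells in the Itgam values was not tested. In the annotation, 68.7% of the Itgam exon bases are shared with the gene model Gm49368 on the same strand, which is not in the count table.

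Itgal, the alpha subunit CD11a of leukocytes, stood at 41.6, 62.1 and 36.2 CPM in vehicle and 51.0, 37.6 and 28.9 CPM with MBQ-167. It stood at 42.3, 34.7 and 27.1 CPM with paclitaxel and 37.1, 40.6 and 23.9 CPM with the combination. Its log2 changes were -0.25 ± 0.26, -0.42 ± 0.26 and -0.46 ± 0.26 (adjusted p = 0.731, 0.348 and 0.358), with overlap throughout. Itgax, the alpha subunit CD11c of dendritic cells and macrophages, stood at 33.5, 29.8 and 17.2 CPM in vehicle, 36.4, 21.1 and 23.0 CPM with MBQ-167, 28.3, 22.0 and 20.8 CPM with paclitaxel and 26.0, 24.3 and 21.6 CPM with the combination. Its log2 changes were 0.00 ± 0.24, -0.17 ± 0.24 and -0.16 ± 0.24 (adjusted p = 0.999, 0.726 and 0.778). Itga4, which binds VCAM1 and fibronectin on lymphocytes and monocytes, was on the other side of 0 at 0.21 ± 0.23, 0.23 ± 0.23 and 0.31 ± 0.23 (adjusted p = 0.769, 0.604 and 0.522). It stood at 27.0, 40.9 and 26.3 CPM in vehicle, 46.0, 34.7 and 28.1 CPM with MBQ-167, 43.1, 39.3 and 28.2 CPM with paclitaxel and 36.5, 49.4 and 30.9 CPM with the combination.

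The pair of lymphocyte subunits Itgae and Itgb7, which together bind E-cadherin on epithelia, was low and had the largest positive changes among the leukocyte integrins. Itgae stood at 3.70, 3.40 and 1.15 CPM in vehicle, 5.73, 3.75 and 2.92 CPM with MBQ-167, 3.61, 4.27 and 3.62 CPM with paclitaxel and 3.81, 4.03 and 4.27 CPM with the combination, whose libraries lay above vehicle. Its log2 changes were 0.59 ± 0.37, 0.48 ± 0.37 and 0.56 ± 0.37 (adjusted p = 0.535, 0.475 and 0.456). Itgb7 stood at 5.29, 7.12 and 2.30 CPM in vehicle, 7.16, 6.35 and 6.76 CPM with MBQ-167, 5.16, 14.6 and 4.29 CPM with paclitaxel and 9.85, 6.57 and 7.43 CPM with the combination, with log2 changes of 0.47, 0.70 and 0.70 (adjusted p = 0.702, 0.367 and 0.429). T and NK cell markers summed to 5.94 to 15.9 CPM in vehicle and 13.1 to 36.2 CPM in the drug groups. Paclitaxel library 2 was the highest for both Itgb7 and these markers. It was also the highest of all libraries for the summed B cell markers (35.2 CPM) and adipocyte markers (31.9 CPM). The B cell sum was 0.723 and 0.859 CPM in paclitaxel libraries 1 and 3. None of the 10 T and NK cell markers tested passed in any comparison by edgeR's quasi-likelihood test. The part of T, NK and B cells and of adipocytes in the Itgae and Itgb7 values was not tested.

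**Figure D4:**
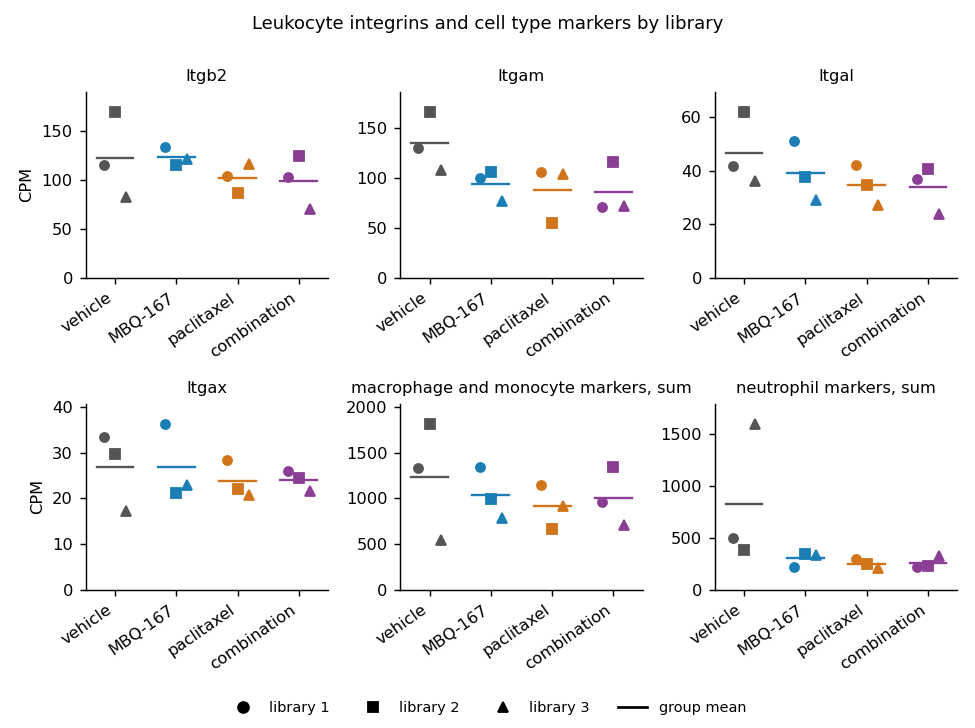
CPM on linear y axes from 0 for the leukocyte integrins Itgb2, Itgam, Itgal and Itgax and summed CPM of the macrophage and neutrophil markers, by group on the x axis; each point is 1 library, its shape gives the library number and the line is the group mean. Vehicle library 2 is the highest for Itgb2, Itgam, Itgal and the macrophage sum (1821 CPM), whereas the neutrophil sum is highest in vehicle library 3 (1605 CPM).

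Adding the second drug to the first gave no call among the members. Combination against MBQ-167 and combination against paclitaxel each had 0 members called by edgeR's quasi-likelihood test and by DESeq2, where 0% of all genes were called by the former and 0.00325% and 0% by the latter. One member in each had an unadjusted p under 0.05, Lamb2 in the first at -0.30 ± 0.14 and Lamc1 in the second at 0.25 ± 0.10, with adjusted p-values of 0.937 and 1, where 5.15% and 2.36% of all genes had such a p. Lama5 was the 1 member whose combination libraries lay below MBQ-167, where 5.92% of all genes did so, and Lamc1 was the 1 member whose combination libraries lay above paclitaxel, where 3.45% did so. The 95% interval excluded a 2-fold change for 24 of 35 members against MBQ-167 and for 25 against paclitaxel. In the interaction, which is 0 where the 2 drug effects add on the log2 scale, no member passed, with 0.0603% of all genes called. Lamc1 had the smallest p at 0.47 ± 0.14 (95% interval 0.16 to 0.77, adjusted p = 0.306), and DESeq2 called it at an adjusted p of 0.0319, with 1.14% of genes called. Itga5 followed at 0.73 ± 0.32 (adjusted p = 0.478), with vehicle library 3 in its baseline, then Lama3 at 2.47 ± 1.25 (adjusted p = 0.553). The members below 0 with the smallest p were Lamb2, Itgae and Itgb7 at -0.23, -0.51 and -0.47 (adjusted p = 0.744, 0.791 and 0.84). The mean of Lamc1 was 569.95 ± 4.20 CPM in vehicle, 492 ± 21.4 with MBQ-167, 422 ± 29.0 with paclitaxel and 503 ± 22.7 with the combination (SD, n = 3), so that the level with both drugs lay between those of paclitaxel and vehicle.

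Genes that work with integrins were read from lists of fixed membership. In the integrin activation and adhesion complex list, 2 of 26 genes passed with paclitaxel, 1 with the combination and 0 with MBQ-167, all lower. Over all genes 5.66%, 1.84% and 0.0931% passed in the same order, and 2.49% passed as lower with paclitaxel. The median log2 changes of the list were -0.25, -0.22 and -0.19. Zyx, which encodes the focal adhesion and stress fibre protein zyxin, stood at 148, 151 and 145 CPM in vehicle, 116, 105 and 99.4 CPM with MBQ-167, 108, 81.7 and 118 CPM with paclitaxel and 93.2, 113 and 90.7 CPM with the combination. Every drug library lay below every vehicle library. Zyx fell with paclitaxel (-0.53 ± 0.14, adjusted p = 0.0387) and with the combination (-0.58 ± 0.14, adjusted p = 0.0476), and its value with MBQ-167 was -0.48 ± 0.14 (adjusted p = 0.172). Bcar1, the integrin adaptor p130Cas, stood at 97.4, 73.4 and 90.1 CPM in vehicle and 52.9, 62.0 and 67.6 CPM with paclitaxel, below vehicle, and fell by 0.52 on the log2 scale (SE 0.13, adjusted p = 0.0371).

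In the hemidesmosome list 1 of 4 genes passed, with paclitaxel, where 5.66% of all genes passed and 2.49% passed as lower. Cd151, a tetraspanin that binds the laminin receptors built with Itga3 or Itga6, stood at 151, 159 and 149 CPM in vehicle and 108, 93.9 and 121 CPM with paclitaxel, below vehicle, and its log2 change was -0.50 ± 0.13 (adjusted p = 0.0339). The calls of Zyx and Cd151 with paclitaxel were lost in 8 and 7 of 15 alternatives, that of Bcar1 in 7 and that of Zyx with the combination in 10, with estimates that stayed below 0 in all of them. Without vehicle library 1 the adjusted p was 0.098 for Zyx, 0.0863 for Cd151 and 0.136 for Bcar1 with paclitaxel, and without paclitaxel library 2 it was 0.145, 0.141 and 0.103. None of the 7 basement membrane partners passed in any comparison, with medians of -0.13, -0.29 and -0.20 in the 3 drug groups. An unadjusted p under 0.05 was found for 1 of them, with paclitaxel. None of the 10 tested ligands other than laminins passed, with medians of -0.28, -0.32 and -0.23. The nearest of these by edgeR's quasi-likelihood test were Ltbp1, which anchors latent TGF-beta, at -0.56 ± 0.18 with paclitaxel (adjusted p = 0.074) and Spp1, which encodes osteopontin, at -0.61 ± 0.16 with the combination (adjusted p = 0.065). Of the 15 listed ligands, Fga, Fgb, Fgg and Vtn stood at 77.6, 43.8, 46.6 and 10.9 CPM in vehicle library 3. In every other library each was at or below 0.869 CPM.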

How the data were processed

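The deposited values were raw read counts per gene, 1 column per library. Per the submitters' processing notes the tools were HISAT2, HTSeq and DESeq2 and the build GRCm38. The labels name polyA RNA; tool versions, annotation, strandedness and multi-mapping settings were not given in the sources used here. Symbols, biotypes and coordinates came from GENCODE vM21 on GRCm38, which matched 45229 of 46078 identifiers. Counts were tested with edgeR 4.0.16 (R 4.3.3): TMM scaling, filterByExpr with a minimum count of 10 (18252 genes kept), and the quasi-likelihood F test with group as the only factor over all 12 libraries (8 residual degrees of freedom, biological coefficient of variation 0.214), adjusted by Benjamini and Hochberg over all genes in each comparison. A gene was called at an adjusted p under 0.05. CPM values are counts divided by the library size after TMM correction, as edgeR computes them. DESeq2 1.42.0, other scalings, filters, covariates and leaving out each library were alternatives. The script was tested on simulated data. The test treated the libraries as unpaired, and the check of replicate numbers given below cannot exclude a pairing. The members, classes, lists and tests were chosen with earlier results of these data known. Full values are given for members called, for fixed members and for the 3 smallest p-values per direction and comparison. 1 member is not reported here.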

Additional observations from a re-analysis of the deposited data

How the results depend on the processing

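No result reversed a call. The number of members called with paclitaxel against vehicle, 1 (Lamc1), was 5 without the filter on low counts (Lama3, Itgam, Itga5 and Itga6 among them), 3 with DESeq2 and 2 with the epithelial marker covariate, an alternative chosen after seeing the data. It was 0 with the GC content offset, the neutrophil marker covariate and a fit of only the groups compared. Leaving out 1 library gave 0 to 2. The other counts were 0; without the filter they became 1 with MBQ-167 (Lama3), 2 with the combination (Itga6, Itgam) and 1 in the interaction (Lama3), and with DESeq2 1 with the combination (Itga6) and 1 in the interaction (Lamc1). The cause of these differences was not tested. With the replicate number as a block the paclitaxel count stayed at 1 (Lamc1). For libraries with the same number, the median correlation of their deviations from the group means was 0.013 (-0.180 to 0.246, 5 of 18 pairs over 0.1). For different numbers it was -0.034 (-0.178 to 0.228, 8 of 36 pairs over 0.1). With 3 libraries a group this check cannot exclude a pairing. Zyx with the combination was not called under the block (adjusted p = 0.0612). Over 3385 recomputed values, 383 uncalled estimates changed sign, in 147 of 214 values. Low members had few counts, 249 in all libraries for Lamc3.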
